A study of Arabidopsis thaliana with 24 samples.

Results

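The comparison described here sets *Ch1* seedlings after 2 h of low light (LL, 30 µE) against *Ch1* seedlings at 0 h of the same LL series. Its libraries were chosen by their labels alone: LL 2 h has 3 replicates and LL 0 h has 3 replicates, which is 6 of the 24 libraries of the series, and all 10930 genes of the LL table were tested. Every library of the series is *Ch1* in the Col-0 ecotype, so no wild type was compared. The seedlings were 2 weeks old and were taken whole, after growth on 1/2 MS medium with 1% sucrose in days of 16 h light and 8 h dark at 22 C. They stood in water for at least 1 h and were moved in water to 12-well plates before the light treatment, so LL 2 h and LL 0 h share genotype, age, medium and equilibration. The series also holds LL at 1 and 4 h and high light (HL, 1000 µE) at 0, 1, 2 and 4 h, with 3 libraries each. RNA was counted at transcript 3' ends by bulk MARS-seq, a method that barcodes each sample's RNA and pools the samples for sequencing. The clock time of sampling is not given in the sources used here, and time of day, time since handling and time in LL cannot be told apart between LL 2 h and LL 0 h.

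The *Ch1* mutant lacks chlorophyll a oxygenase, the enzyme that makes chlorophyll b, and its light-harvesting complexes therefore assemble improperly and its plastids are a source of singlet oxygen. The light-harvesting proteins of photosystem II (LHCB) and photosystem I (LHCA) bind chlorophyll around the reaction centres, and their nuclear genes respond to light, to the circadian clock and to signals from the plastid. Seedlings that have been touched or moved are also known to switch on, within minutes, genes of jasmonate synthesis, of rapid stress signalling and of the CBF cold pathway, whose transcripts are short-lived.

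Library totals were 1307887, 1323219 and 1628151 counts in LL 2 h, against 1712689, 1754285 and 1367282 counts in LL 0 h. Values are given as TMM-scaled counts per 1e+06 reads (CPM), and a log2 fold change is LL 2 h over LL 0 h with its standard error (SE). One library stood apart from its group. Counting error alone gives a chi-square near 1 per degree of freedom, and LL 2 h replicate 2 differed from replicates 1 and 3 with 7.84 and 8.58, while replicates 1 and 3 differed with 2.27. Replicate pairs of LL 0 h gave 3.55, 4.70 and 5.74. The study's methods describe biological replicates of several whole seedlings each for its other RNA assays. They do not say this of the sequencing libraries, so p-values measure only the spread between these libraries, which may be in part technical.

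The whole-seedling label fits the marker genes, since both organs were detected. The summed level of 9 root markers was 594, 441 and 580.2 CPM in LL 2 h, against 393, 503 and 300.1 CPM in LL 0 h, and these groups overlap. The summed level of 8 shoot markers was 13490, 10120 and 14860 CPM in LL 2 h, against 30040, 28530 and 29360 CPM in LL 0 h, and here every LL 2 h library lies below every LL 0 h library. Of the root markers, 0 were called higher and 1 of 9 was called lower, with a median log2 fold change of 0.35 (0.725 without LL 0 h replicate 2, 0.15 without LL 0 h replicate 3). Of the shoot markers, 0 were higher and 4 of 8 were lower (median -1.08), and the others had negative values that missed the call. No marker on either list was at 0 in all libraries of a group. All 8 shoot markers are genes of carbon fixation or photorespiration, and RCA, RBCS1A and CA1 among them are given again below. Their level is therefore not a measure of organ make-up apart from such genes. The shoot marker median against LL 0 h was -0.72 at 1 h and -0.46 at 4 h. In bulk RNA, fewer cells of a type and less RNA per cell cannot be told apart, and the part of organ make-up in the results that follow was not tested.

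After 2 h of LL, 474 genes were called higher and 891 were called lower, which is 4.34% and 8.15% of the 10930 genes tested. A call needed an adjusted p under 0.05 in the quasi-likelihood test of edgeR, with Benjamini-Hochberg adjustment over all 10930 genes, and a change of at least 2-fold. Changes of 4-fold or more were found for 95 genes that rose and 291 that fell. The 3 libraries of LL 2 h all lay above the 3 of LL 0 h for 460 of the 474 genes that rose, and all below for 853 of the 891 that fell. Over all genes tested, 1993 lay wholly above, 2010 wholly below and 6927 (63.4%) overlapped, and the median log2 fold change was -0.01. Without LL 2 h replicate 2, the counts were 483 higher and 802 lower, of which 404 and 720 were genes also called with all libraries. The genes were further grouped into 23 lists by function. For each list given below with 0 genes higher, the count was also 0 at an unadjusted p under 0.05 with a 2-fold change in edgeR, and 0 in DESeq2.

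**Figure D1:**
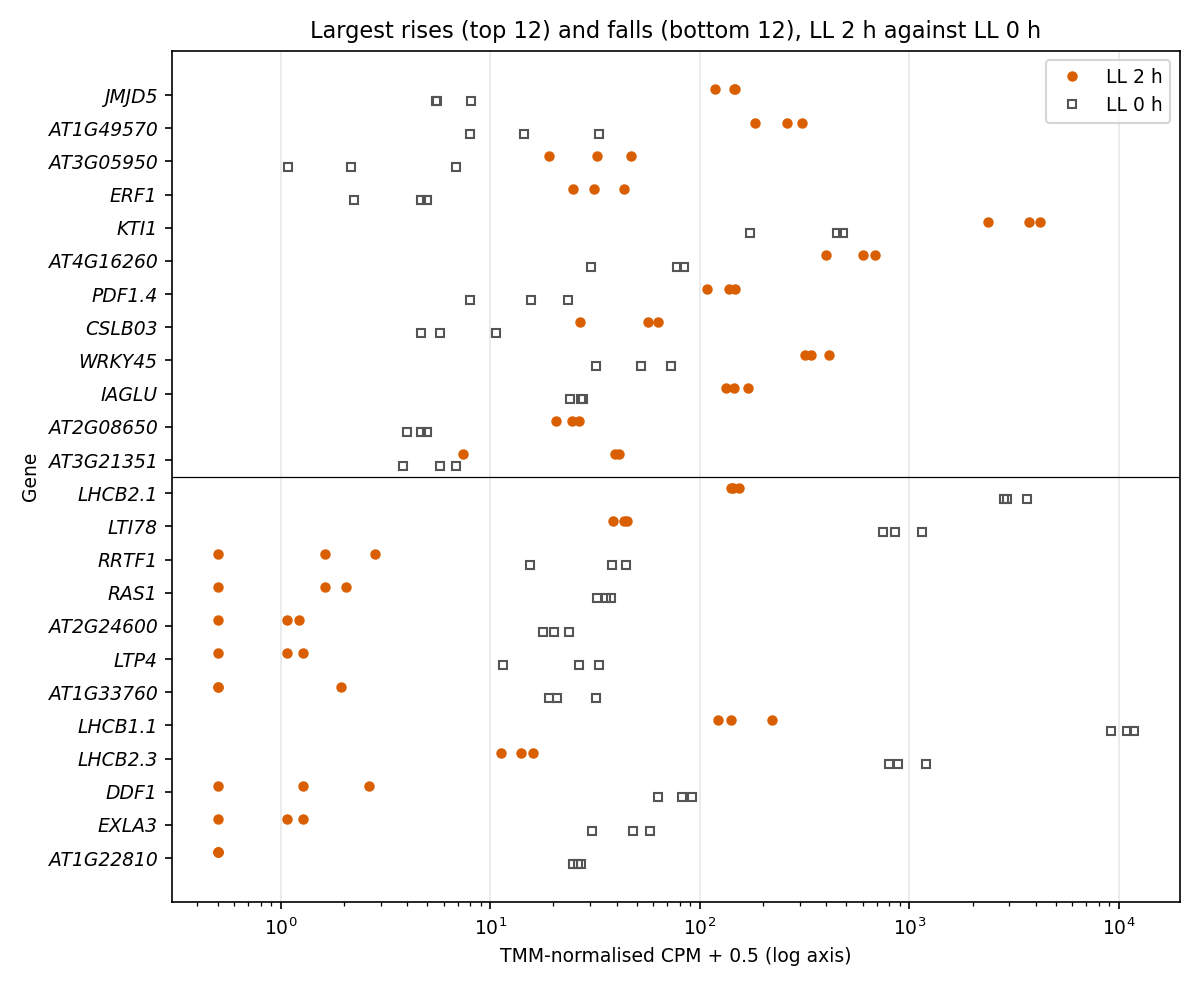
Level of the 12 genes with the largest rise and the 12 with the largest fall in each LL 2 h and LL 0 h library, as CPM plus 0.5 on a log axis. Each point is 1 library, and for all 24 genes the LL 2 h points lie wholly on one side of the LL 0 h points, as the rule for choosing them asks.

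Transcripts of the light-harvesting antenna were widely lower after 2 h of LL. Of 21 antenna genes, 0 were called higher and 16 were called lower, against 4.34% and 8.15% of all genes, and the median log2 fold change of the list was -1.31. The 3 LL 2 h libraries lay below the 3 LL 0 h libraries for 20 of the 21, against 18.4% of all genes. The summed shoot marker level given above was lower beside them, from 10120 to 14860 CPM in LL 2 h, against 28530 to 30040 CPM in LL 0 h, and its part in the antenna result was not tested.

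LHCB2.3, a protein of the major trimeric antenna of photosystem II, had 10.7, 15.4 and 13.6 CPM in LL 2 h, against 795, 879.9 and 1203 CPM in LL 0 h. All LL 2 h libraries were far below all LL 0 h libraries, a 72.1-fold fall (log2 fold change -6.17 ± 0.21 SE, edgeR adjusted p = 9.62e-13). LHCB1.1, another protein of the major antenna, had 140.2, 220.5 and 121 CPM in LL 2 h, against 10950, 9128 and 11790 CPM in LL 0 h. It fell 66.5-fold without overlap (-6.05 ± 0.23, edgeR adjusted p = 1.83e-12). LHCB2.1, of the same trimeric antenna, had 144, 153 and 139.6 CPM in LL 2 h, against 2817, 2916 and 3642 CPM in LL 0 h, and its groups were as clearly apart (-4.43 ± 0.18, edgeR adjusted p = 7.8e-12).

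Members of the major antenna differed widely in how far they fell. LHCB1.5, of the same family as LHCB1.1, had 7855, 16190 and 7973 CPM in LL 2 h, against 24730, 19500 and 29980 CPM in LL 0 h. Its fall was 2.32-fold (-1.21 ± 0.23), and LL 2 h replicate 2 lay nearest to LL 0 h. LHCB1.3 had 6680, 9691 and 7068 CPM in LL 2 h, against 16410, 12850 and 18410 CPM in LL 0 h, a fall of 2.03-fold (-1.02 ± 0.16) with no overlap. The coding regions of LHCB1.1, LHCB1.2 and LHCB1.3 are near-identical, as are those of LHCB2.1 and LHCB2.2, and how the counting divided reads between such copies is not known from the sources used here, so the values of single copies are uncertain.

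Of the minor antenna, LHCB6 fell (-1.60 ± 0.15) with 3198, 4155 and 3009 CPM in LL 2 h, against 10720, 8838 and 11790 CPM in LL 0 h. LHCB4.1 did not pass the 2-fold limit, with 3824, 5445 and 3930 CPM in LL 2 h, against 6388, 5937 and 7888 CPM in LL 0 h (-0.61 ± 0.15). At photosystem I, LHCA4 had 1521, 2737 and 1750 CPM in LL 2 h, against 6528, 6494 and 7580 CPM in LL 0 h, and fell 3.43-fold without overlap. The smallest change of the list was that of LHCA5, with 174, 214 and 184 CPM in LL 2 h, against 216, 202 and 238 CPM in LL 0 h, where the groups overlapped (-0.20 ± 0.13, edgeR adjusted p = 0.316). Without LL 2 h replicate 2, in which several antenna genes were highest, 17 were lower and the median of the list was -1.64.

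**Figure D2:**
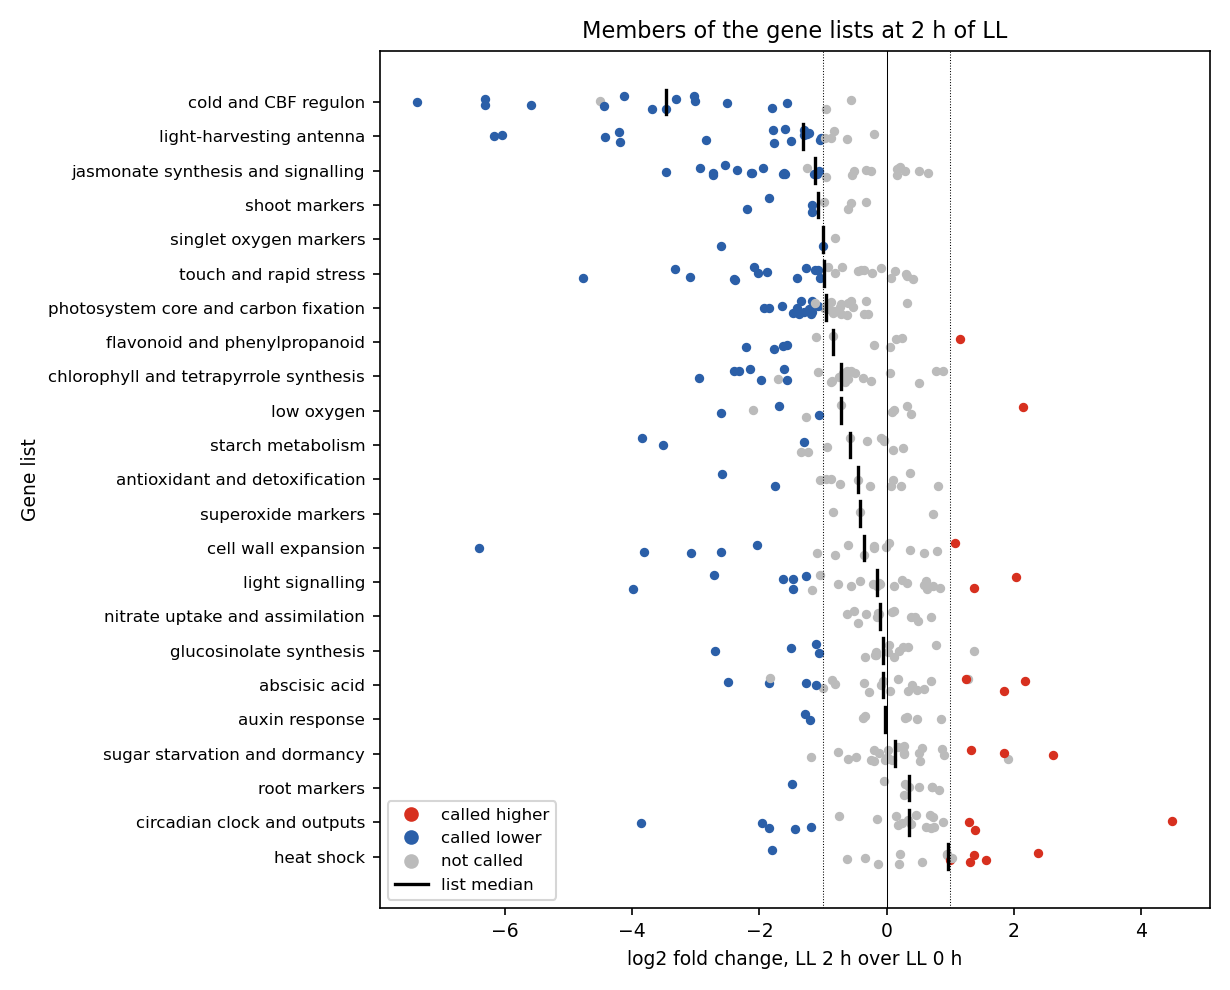
Log2 fold change of LL 2 h over LL 0 h for every tested member of each gene list, with the median of each list. Each point is 1 gene, and the medians run from -3.47 for the cold and CBF regulon and -1.31 for the antenna to 0.96 for the heat shock list.

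Reaction centres and carbon fixation had no gene called higher either. Of 31 genes for photosystem subunits, electron carriers and the Calvin cycle, 0 were called higher and 13 were called lower (median -0.95). The shares of all genes were 4.34% and 8.15%. Of the 31, 26 lay wholly below LL 0 h, against 18.4% of all genes. PSAO, a small subunit of photosystem I, had 1058, 1370 and 1146 CPM in LL 2 h, against 4728, 3917 and 5018 CPM in LL 0 h, and fell 3.82-fold (-1.94 ± 0.14, edgeR adjusted p = 1.29e-08). RCA, the activase of the carbon-fixing enzyme Rubisco, had 619, 668 and 649 CPM in LL 2 h, against 2098, 2183 and 2691 CPM in LL 0 h, and fell 3.60-fold. The small subunits of Rubisco did not move as 1 block. RBCS1A fell 2.25-fold, with 8340, 3985 and 8799 CPM in LL 2 h, against 16900, 16000 and 14620 CPM in LL 0 h, and here LL 2 h replicate 2 was the lowest. RBCS1B was not called, with 1412, 1007 and 1618 CPM in LL 2 h, against 1171, 1258 and 806 CPM in LL 0 h, groups that overlapped (0.32 ± 0.18, edgeR adjusted p = 0.219). CA1, a stromal carbonic anhydrase on the shoot marker list, had 554, 416 and 724 CPM in LL 2 h, against 2388, 2687 and 2667 CPM in LL 0 h, and fell 4.56-fold without overlap.

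Chlorophyll is made from tetrapyrroles in the plastid, and magnesium chelatase sends protoporphyrin towards chlorophyll while ferrochelatase sends it towards heme. Of 24 genes of this pathway, 0 were called higher and 7 were called lower (median -0.72), against 4.34% and 8.15% of all genes. CHLH, the large subunit of magnesium chelatase, had 124, 156 and 133 CPM in LL 2 h, against 624, 588 and 623 CPM in LL 0 h, and fell 4.45-fold (-2.15 ± 0.13, edgeR adjusted p = 1.45e-09). PORB, a light-dependent protochlorophyllide reductase, had 257, 263 and 312 CPM in LL 2 h, against 750.5, 887 and 901 CPM in LL 0 h, and fell 3.05-fold. Both genes had groups that did not overlap. The ferrochelatases differed from each other. FC1 fell 3.91-fold, with 18.6, 17.7 and 25.4 CPM in LL 2 h, against 76.4, 86.5 and 82.1 CPM in LL 0 h. FC2 lay wholly above LL 0 h but under the 2-fold limit, with 55.8, 71.7 and 50.3 CPM in LL 2 h, against 28.0, 29.0 and 39.0 CPM in LL 0 h (0.89 ± 0.19). The other called members were GUN4, which helps magnesium chelatase, HEMA1, which makes the first committed intermediate, CRD1, of the cyclase step, and PORA, another protochlorophyllide reductase, and their log2 fold changes were -2.94, -2.32, -1.56 and -2.40. HEMA1 and PORA rest on low counts, with at most 6.97 CPM in any of these libraries. The gene mutated in *Ch1* is not analysed here.

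The cold and CBF regulon held the largest median fall of the 23 lists. CBF proteins are AP2-type transcription factors that bind the CRT/DRE element, whose core is CCGAC, in the promoters of cold-regulated genes. Of 17 genes, 0 were called higher and 14 were called lower, against 8.15% of all genes lower. The median log2 fold change was -3.47, or -3.26 when the 3 members at 0 in a group are set at their bound. All 17 lay wholly below LL 0 h, against 18.4% of all genes.

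The promoters of COR15A and LTI78 are shown because these genes fell strongly and their windows hold the element, for which they were chosen. Each is the 250 bases before the annotated start from the RefSeq TAIR10.1 sequence, 5′ to 3′ on the gene's strand, with CCGAC or its reverse complement in capitals.
COR15A (chr2:17712331-17712580, minus strand): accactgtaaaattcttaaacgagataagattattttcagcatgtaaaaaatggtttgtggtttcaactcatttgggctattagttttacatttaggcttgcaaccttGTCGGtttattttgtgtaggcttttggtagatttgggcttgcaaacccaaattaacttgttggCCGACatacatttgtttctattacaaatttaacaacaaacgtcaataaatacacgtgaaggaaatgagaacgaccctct
LTI78 (chr5:21240467-21240716, plus strand): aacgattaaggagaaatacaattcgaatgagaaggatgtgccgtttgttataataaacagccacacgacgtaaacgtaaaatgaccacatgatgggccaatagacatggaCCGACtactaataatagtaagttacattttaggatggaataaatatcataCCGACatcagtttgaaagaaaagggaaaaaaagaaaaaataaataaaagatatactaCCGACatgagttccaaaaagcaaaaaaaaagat

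The COR15A window holds the core 142 and 79 bases before the start, the first on the opposite strand, and the LTI78 window holds it 140, 90 and 33 bases before the start. Searched on both strands, CCGAC was in the windows of 6 of the 17 cold genes (35.3%), of 140 of the 890 genes called lower, of 50 of the 472 called higher (10.6%) and of 12.9% of the 10847 genes with a window. Also searched was CACGTG, the G-box, found in 23.5% of cold, 23.8% of antenna, 19.2% of touch and rapid stress and 22.7% of clock genes. Its share of all genes with a window was 7.5%. The CCA1 binding site AAAAATCT was in 0 cold genes, 14.3% of antenna, 7.69% of touch and rapid stress and 9.09% of clock genes, against 6.69% of all. These matches are a description of letters in a window of 250 bases.

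COR15A, a plastid protein that protects membranes from freezing, had 10.7, 13.1 and 19.2 CPM in LL 2 h, against 234, 164 and 382 CPM in LL 0 h, and fell 17.58-fold (-4.14 ± 0.32, edgeR adjusted p = 4.02e-08). LTI78 (also RD29A), a classic marker of cold and drought, had 44.3, 37.8 and 42.9 CPM in LL 2 h, against 849.8, 749 and 1149 CPM in LL 0 h, and fell 21.9-fold (-4.45 ± 0.19). ERD10, a dehydrin, had 104, 107 and 96.6 CPM in LL 2 h, against 1264, 1312 and 1407 CPM in LL 0 h, and fell 13.0-fold (-3.70 ± 0.13, edgeR adjusted p = 9.62e-13). In all 3 genes the groups did not overlap, and the LL 0 h replicates of COR15A were the most unequal.

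The transcription factors of the regulon were near or at 0 after 2 h. DDF1, a CBF relative, had 2.15, 0.771 and 0 CPM in LL 2 h, against 91.0, 62.7 and 82.1 CPM in LL 0 h (-6.32 ± 0.42, edgeR adjusted p = 5.08e-09). DDF2, another relative, had 0 counts in LL 2 h, against 11.5, 8.71 and 20.7 CPM in LL 0 h, which is at least 19.2-fold lower when the LL 2 h group is set at a floor of 3 counts over its 3 libraries. CBF2 likewise had 0 counts in LL 2 h, against 6.37, 8.13 and 4.14 CPM in LL 0 h, at least 9.59-fold lower on the same floor, and GOLS3, which makes the osmoprotectant precursor galactinol, was at least 5.62-fold lower. The members not called were CBF1, COR413IM1 and COR27, of which CBF1 had at most 3.48 CPM in any of the 6 libraries. KIN1 and KIN2 are near-identical neighbours, and their log2 fold changes of -3.47 and -1.57 are uncertain for that reason.

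Genes of jasmonate synthesis and signalling fell as well. This hormone is made from plastid lipids by lipoxygenases (LOX), allene oxide synthase and cyclase (AOS, AOC) and OPR3, and acts through removal of JAZ repressors. Of 28 genes, 0 were called higher and 15 were called lower (median -1.12), against 4.34% and 8.15% of all genes. AOC3 had 13.6, 21.6 and 23.2 CPM in LL 2 h, against 124, 102 and 118 CPM in LL 0 h, and fell 5.83-fold (-2.54 ± 0.19, edgeR adjusted p = 2.95e-08). LOX2, a plastid lipoxygenase, had 62.9, 43.9 and 129.9 CPM in LL 2 h, against 506, 552 and 536 CPM in LL 0 h, and LOX4, of the same family, had 7.15, 3.85 and 14.1 CPM in LL 2 h, against 84.0, 110.3 and 100.3 CPM in LL 0 h. Replicate 3 was the highest of LL 2 h for both, and neither gene's groups overlapped. CYP94B3, which breaks down the active jasmonate conjugate, fell 5.11-fold, with 15.73, 15.4 and 20.3 CPM in LL 2 h, against 85.9, 88.9 and 92.0 CPM in LL 0 h. The receptor COI1 and the transcription factor MYC2 were not called, with log2 fold changes of 0.17 and -0.33.

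Genes known to respond to touch and rapid stress were also lower in part. Of 26, 0 were called higher and 13 were called lower (median -0.98), against 4.34% and 8.15% of all genes. Without LL 2 h replicate 2, 11 were lower. RRTF1, an ERF-type transcription factor, had 0, 2.31 and 1.13 CPM in LL 2 h, against 43.9, 37.8 and 14.9 CPM in LL 0 h (-4.77 ± 0.54, edgeR adjusted p = 2.88e-06). DIC2, a mitochondrial dicarboxylate carrier, had 22.2, 15.4 and 25.4 CPM in LL 2 h, against 181, 214 and 251 CPM in LL 0 h, and fell 10.06-fold. SZF1, a zinc finger protein, fell 4.25-fold, with 17.2, 22.4 and 29.9 CPM in LL 2 h, against 91.0, 108 and 101 CPM in LL 0 h. The groups of all 3 genes were apart. Members that were not called included ERF1A, ERF2, ERF4, ERF5 and ERF104, ethylene response factor family members with log2 fold changes between -0.36 and 0.32, and the zinc finger gene ZAT10, which lay wholly below LL 0 h at -0.81.

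Further genes with large falls included AP2-type factors outside the lists. AT1G22810, annotated with an integrase-type DNA-binding domain, had 0 counts in LL 2 h, against 24.2, 25.6 and 26.5 CPM in LL 0 h, at least 37.7-fold lower on the floor of 3 counts over the group. AT1G33760, with the same annotation, had 2 counts over LL 2 h and 102 over LL 0 h, 50.6-fold fewer (exact 95% interval 13.7 to 423.6, counting error only). RAS1, a protein named for its response to abscisic acid and salt, had 0, 1.54 and 1.13 CPM in LL 2 h, against 35.0, 31.9 and 37.3 CPM in LL 0 h (-5.15 ± 0.45). LTP4, a lipid transfer protein, had 2 counts over LL 2 h and 99 over LL 0 h, 49.1-fold fewer (13.3 to 411.3), and the ankyrin repeat gene AT2G24600 had 2 against 92, 45.7-fold fewer (12.3 to 382.6). Such small counts were common among called genes, with at most 3 counts in the lower group for 33 of those that rose and 88 of those that fell, and 0 for 9 and 24 of these.

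Cell wall genes were divided. Expansins loosen the wall and xyloglucan endotransglucosylase/hydrolases (XTH) cut and rejoin its xyloglucan. Of 17 such genes, 1 was called higher and 5 were called lower, against 4.34% and 8.15% of all genes. The list median was -0.35, or -0.58 without LL 0 h replicate 1 and -0.22 without LL 0 h replicate 2. EXLA3, an expansin-like gene, had 2 counts over LL 2 h and 198 over LL 0 h, 98.3-fold fewer (26.8 to 817), with 0, 0.771 and 0.565 CPM in LL 2 h, against 29.9, 47.6 and 57.2 CPM in LL 0 h. EXLA2, its relative, had 12.2, 15.4 and 8.47 CPM in LL 2 h, against 132, 144 and 226 CPM in LL 0 h, and fell 14.1-fold (-3.81 ± 0.25, edgeR adjusted p = 4.95e-09). All 3 expansin-like genes tested fell, while none of the 6 alpha-expansins was called. XTH24 rose, with 247, 269.8 and 200 CPM in LL 2 h, against 133, 114 and 92.0 CPM in LL 0 h (1.07 ± 0.16), and its change was under 2-fold without LL 2 h replicate 2 (0.97) and without LL 0 h replicate 3 (0.95).

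The circadian clock list moved in both directions. Of 22 genes, 3 were called higher and 5 were called lower (median 0.36, or 0.23 without LL 2 h replicate 2), against 4.34% and 8.15% of all genes. The clock is built from factors that peak around dawn, such as CCA1, and factors that follow through the day into the evening, such as the PRR genes, TOC1, ELF4 and LUX. The single largest rise among the genes named by size was that of JMJD5 (also JMJ30), a JmjC-domain protein that acts with the clock. It had 117, 145 and 146 CPM in LL 2 h, against 5.09, 7.55 and 4.97 CPM in LL 0 h, and rose 22.5-fold (4.49 ± 0.20, edgeR adjusted p = 2.7e-11).

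ELF4, of the evening complex, had 237, 301 and 255 CPM in LL 2 h, against 116, 112 and 95.3 CPM in LL 0 h, and rose 2.45-fold. BOA, a close relative of the evening complex member LUX, had 65.8, 58.6 and 47.5 CPM in LL 2 h, against 21.01, 24.4 and 19.1 CPM in LL 0 h, and rose 2.63-fold. In all 3 genes called higher the groups did not overlap. CCA1, the dawn factor, had 3 counts over LL 2 h and 49 over LL 0 h, 16.2-fold fewer (5.23 to 81.3). PRR5 and PRR7, daytime repressors, fell with log2 fold changes of -1.45 and -1.84, CHE, which binds the promoter of CCA1, with -1.18 and CDF3, a DOF factor under clock control, with -1.96. CDF3 had 9.30, 7.71 and 11.9 CPM in LL 2 h, against 27.4, 48.2 and 39.0 CPM in LL 0 h. TOC1 and ELF3 lay at 0.74 and 0.89, under the 2-fold limit.

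The evening element AAAATATCT, to which CCA1-type factors bind, was found on either strand in the windows of 7 of the 22 clock genes (31.8%), and in 1.27% of genes called higher, 3.71% of genes called lower and 2.64% of all genes with a window. Neither this string nor CCGAC contains the other. The clock genes with it were PRR5, TOC1, LUX, BOA, FKF1, GRP7 and GRP8. JMJD5 and ELF4, which were also called higher, lack it in their windows, and PRR5, which holds it, was called lower. The window of BOA is printed because BOA rose and holds the element, on the opposite strand 43 bases before the start, with the element in capitals.
BOA (chr5:24003638-24003887, plus strand): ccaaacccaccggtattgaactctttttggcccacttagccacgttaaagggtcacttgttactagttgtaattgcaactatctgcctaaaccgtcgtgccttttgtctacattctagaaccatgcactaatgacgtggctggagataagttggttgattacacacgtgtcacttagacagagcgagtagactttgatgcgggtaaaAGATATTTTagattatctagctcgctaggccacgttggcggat

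Of 25 light signalling genes, 2 were called higher and 6 were called lower, against 4.34% and 8.15% of all genes. The list median was -0.15, or -0.29 without LL 2 h replicate 1. PIF3, a bHLH factor that phytochrome removes in light, had 128, 146 and 92.1 CPM in LL 2 h, against 39.5, 22.1 and 27.4 CPM in LL 0 h, and rose 4.097-fold (2.04 ± 0.22, edgeR adjusted p = 1.4e-06). HY5, a bZIP factor that promotes light responses, had 105, 112 and 103 CPM in LL 2 h, against 49.6, 36.01 and 37.3 CPM in LL 0 h, and rose 2.60-fold. These factors are known to act in opposite ways in seedlings, and neither gene's groups overlapped. Those called lower were PIF7, a relative of PIF3, the B-box genes BBX2, BBX16, BBX25 and BBX28, and ELIP2, an early light-induced protein of the thylakoid. BBX16 had 3 counts over LL 2 h and 53 over LL 0 h, 17.5-fold fewer (5.68 to 87.7). BBX2 had 8.58, 11.6 and 13.0 CPM in LL 2 h, against 24.8, 32.5 and 36.5 CPM in LL 0 h, and fell 2.78-fold. The photoreceptor genes PHYA, PHYB, CRY1, CRY2, PHOT1 and PHOT2 were not called, with log2 fold changes between -0.42 and 0.85.

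Among the other leading rises were genes of defence and of the cell wall. AT1G49570, a peroxidase family gene, had 308, 184 and 259 CPM in LL 2 h, against 32.5, 13.9 and 7.46 CPM in LL 0 h, and rose 13.5-fold (3.76 ± 0.36, edgeR adjusted p = 4.9e-07). KTI1, a Kunitz-type protease inhibitor, had 4201, 2368 and 3713 CPM in LL 2 h, against 479.9, 451 and 172 CPM in LL 0 h, and rose 9.28-fold. AT4G16260, a glycosyl hydrolase gene, had 688, 399 and 597 CPM in LL 2 h, against 83.4, 77.2 and 29.8 CPM in LL 0 h, and rose 8.68-fold. In all 3, LL 2 h replicate 2 was the lowest of its group, and the groups stayed apart.

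ERF1, a transcription factor of ethylene and jasmonate signalling, had 42.9, 30.8 and 24.3 CPM in LL 2 h, against 4.46, 1.74 and 4.14 CPM in LL 0 h, and rose 9.48-fold (3.25 ± 0.35). WRKY45, a WRKY transcription factor, had 414, 317 and 338 CPM in LL 2 h, against 72.6, 51.7 and 31.5 CPM in LL 0 h, and rose 6.77-fold (2.76 ± 0.20). IAGLU, which joins glucose to the auxin indole-3-acetic acid, had 169.5, 133 and 145 CPM in LL 2 h, against 23.55, 27.3 and 26.5 CPM in LL 0 h, and rose 5.76-fold. These 3 genes again had no overlap between groups.

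PDF1.4, a plant defensin gene, and AT3G05950, of the cupin family, had log2 fold changes of 3.05 and 3.45, and CSLB03, a cellulose synthase-like gene, had 2.86. AT2G08650, annotated as a non-coding RNA, had 20.02, 23.9 and 26.0 CPM in LL 2 h, against 4.46, 3.48 and 4.14 CPM in LL 0 h, and rose 5.74-fold. AT3G21351, an uncharacterised protein, rose 5.71-fold with replicates that did not hold together, since it had 40.8, 6.94 and 39.0 CPM in LL 2 h, against 6.37, 5.23 and 3.32 CPM in LL 0 h, and LL 2 h replicate 2 sat just above LL 0 h.

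Heat shock genes had the highest median of the lists with all libraries. These chaperones keep other proteins folded, and MBF1C is a coactivator that accumulates in heat. Of 15 genes, 5 were called higher and 1 was called lower (median 0.96), against 4.34% and 8.15% of all genes. The counts were 4 and 1 without LL 2 h replicate 2, and 3 and 1 in DESeq2. The median was 0.58 without LL 2 h replicate 3. HSP17.4, a small heat shock protein, had 84.4, 61.7 and 61.0 CPM in LL 2 h, against 8.28, 16.8 and 14.1 CPM in LL 0 h, and rose 5.24-fold (2.39 ± 0.35, edgeR adjusted p = 5.72e-05). HSP70 had 322, 285 and 262 CPM in LL 2 h, against 57.3, 109 and 129 CPM in LL 0 h, and rose 2.95-fold. MBF1C had 95.1, 59.4 and 75.7 CPM in LL 2 h, against 31.8, 34.9 and 20.7 CPM in LL 0 h, and rose 2.59-fold. All 3 had groups that did not overlap. The cytosolic HSC70-1 sat on the limit at 2.00-fold (log2 fold change 1.00 ± 0.14), and its call ended under other scalings, at 0.97 with RLE and 0.99 with upper-quartile factors. HSP17.6II rose with 1.31, and HSP18.2, another small heat shock protein, fell with -1.81, with at most 12.7 CPM in any of the 6 libraries.

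LL is dimmer than the light in which the seedlings grew, so genes that mark sugar starvation were examined. Of 26 such genes, 3 were called higher, 11.5% against 4.34% of all genes, and 0 were called lower (median 0.13, or 0.08 to 0.40 with 1 library left out, the highest without LL 0 h replicate 2). DRM1, a dormancy-associated gene, had 2594, 3418 and 2341 CPM in LL 2 h, against 1148, 1100 and 1089 CPM in LL 0 h, and rose 2.50-fold (1.32 ± 0.14, edgeR adjusted p = 1.81e-06) without overlap. DIN11, a dark-inducible oxygenase gene, rose with 1.85 ± 0.52 on 17.9, 10.02 and 11.3 CPM in LL 2 h, against 5.09, 2.32 and 3.32 CPM in LL 0 h, a call that ended without LL 0 h replicate 2 (edgeR adjusted p = 0.0715) and without LL 2 h replicate 1 (0.0688). DIN2, a dark-inducible beta-glucosidase gene, had 14 counts over LL 2 h and 2 over LL 0 h, 7.05-fold more (1.62 to 63.9). ASN1 and SEN1, much used markers of dark and low sugar, were not called, at -0.19 and -0.03.

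Of 13 starch genes, 0 were called higher and 3 were called lower (median -0.57), against 4.34% and 8.15% of all genes. The median was -1.09 without LL 2 h replicate 3 and -0.24 without LL 2 h replicate 2, where 2 genes were called lower. GBSS1, which makes amylose and is under clock control, had 1.43, 8.48 and 1.13 CPM in LL 2 h, against 49.6, 34.3 and 34.8 CPM in LL 0 h (-3.51 ± 0.45, edgeR adjusted p = 1.29e-05). BAM5, a beta-amylase outside the plastid, had 4.29, 3.85 and 7.34 CPM in LL 2 h, against 88.5, 116 and 26.5 CPM in LL 0 h (-3.85 ± 0.51). BAM9, a catalytically inactive member of the beta-amylase family, fell with -1.31. For GBSS1, LL 2 h replicate 2 was the highest of its group, for BAM5 LL 0 h replicate 3 was the lowest of its group, and neither gene's groups overlapped. None of 13 nitrate uptake and assimilation genes was called in either direction in edgeR, at an unadjusted p with 2-fold or in DESeq2 (median -0.11, with log2 fold changes from -0.63 to 0.70).

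Of 23 abscisic acid genes, 3 were called higher and 4 were called lower (median -0.05), against 4.34% and 8.15% of all genes. In DESeq2 the counts were 2 and 4. All 3 that rose in edgeR encode protein phosphatases of type 2C, which hold the pathway back. ABI1 had 261, 281 and 245 CPM in LL 2 h, against 134, 95.2 and 101 CPM in LL 0 h, and rose 2.38-fold (1.25 ± 0.14, edgeR adjusted p = 2.64e-06). HAI1 and HAI2 rose with 1.84 and 2.17 on fewer counts, at most 15.73 CPM in any of the 6 libraries. Those that fell encode proteins made in response to the hormone or to drought. RD22 had 61.5, 62.4 and 51.4 CPM in LL 2 h, against 218, 191 and 222 CPM in LL 0 h, and fell 3.60-fold, and RAB18, LEA4-5 and P5CS1 fell with -1.12 (-0.91 without LL 0 h replicate 3), -2.49 and -1.26. The groups of ABI1 and RD22 were apart.

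The auxin and secondary metabolism lists held more genes called lower than higher. So did all genes tested, with 8.15% lower and 4.34% higher. IAA17 and IAA19, repressors of auxin response, were the 2 called lower of 8 auxin genes, at -1.27 and -1.20, and 0 were higher. The call of IAA19 ended in DESeq2 (adjusted p = 0.0813) and without LL 0 h replicate 2 or 3 or LL 2 h replicate 1 (edgeR adjusted p 0.0551 to 0.0924). Of 11 flavonoid and phenylpropanoid genes, 1 was called higher and 4 were called lower (median -0.84). PAL1, at the entry of the phenylpropanoid pathway, had 23.6, 15.4 and 33.9 CPM in LL 2 h, against 111, 148 and 82.1 CPM in LL 0 h, and fell 4.604-fold. PAL2, which encodes the same enzyme, fell 3.08-fold, F3H and FLS1 of the flavonoid branch fell with -1.77 and -1.57, and MYB12, an activator of flavonol genes, rose with 1.16 ± 0.40 (edgeR adjusted p = 0.0415), a call that ended under 8 alternatives. Of 16 glucosinolate genes, 0 were higher and 4 were lower (median -0.06), and all 4 belong to the branch that starts from methionine: BCAT4 at -1.502, MAM1 at -1.06 (-0.94 without LL 0 h replicate 1, -0.99 without LL 2 h replicate 3), CYP79F1 at -2.70 and CYP83A1 at -1.10.

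Of 11 low oxygen genes, 1 was called higher and 3 were called lower (median -0.71), against 4.34% and 8.15% of all genes. The median was -0.03 without LL 0 h replicate 1, -1.12 without LL 2 h replicate 1 and -0.33 without LL 2 h replicate 2. ADH1, an alcohol dehydrogenase, had 40.05, 16.2 and 16.9 CPM in LL 2 h, against 97.4, 74.9 and 60.5 CPM in LL 0 h, and fell 3.22-fold, ALAAT1, an alanine aminotransferase, fell with -1.06 (-0.98 without LL 0 h replicate 2), and SUS4, a sucrose synthase, had 3 counts over LL 2 h and 20 over LL 0 h, 6.62-fold fewer (1.96 to 34.8). ETR2, an ethylene receptor, rose 4.41-fold, with 79.4, 93.3 and 95.5 CPM in LL 2 h, against 23.55, 18.0 and 19.1 CPM in LL 0 h (2.14 ± 0.17, edgeR adjusted p = 5.01e-08). The groups of ADH1 and of ETR2 did not overlap.

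The study concerns singlet oxygen, so its marker genes were examined in every library. Of the 4 listed singlet oxygen markers, 3 were in the LL table. Of these 3, 0 were called higher and 2 were called lower, against 4.34% and 8.15% of all genes. AT5G64870, a membrane-associated protein of the SPFH family, had 2.15, 2.31 and 9.61 CPM in LL 2 h, against 31.8, 23.8 and 39.0 CPM in LL 0 h, and fell 6.11-fold (-2.61 ± 0.40, edgeR adjusted p = 8.34e-05). AT5G13200, a GRAM domain protein, had 13.6, 16.2 and 14.7 CPM in LL 2 h, against 28.0, 34.3 and 26.5 CPM in LL 0 h, at the 2-fold limit (-1.004 ± 0.26), and its change was under 2-fold in 3 of 6 fits with 1 library left out and with the replicate number as a block (-0.99). BAP1, a C2-domain protein that restrains cell death, was not called, with 58.6, 39.3 and 74.6 CPM in LL 2 h, against 112, 93.5 and 101 CPM in LL 0 h (-0.81 ± 0.19). All 3 had LL 2 h libraries wholly below those of LL 0 h, as had 18.4% of all genes.

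Of the 4 listed superoxide markers, 3 were in the LL table. None of these 3 was called in edgeR, at an unadjusted p with 2-fold, or in DESeq2. FER1, an iron storage ferritin of the plastid, had 957, 1135 and 793 CPM in LL 2 h, against 622, 638 and 469 CPM in LL 0 h. It lay wholly above LL 0 h and passed the adjusted p limit, but its change was under 2-fold (0.74 ± 0.15, edgeR adjusted p = 0.00156). MYBL2, a repressor of flavonoid genes, had 2.86, 1.54 and 2.26 CPM in LL 2 h, against 5.09, 1.74 and 5.80 CPM in LL 0 h, and AT4G21870, of the HSP20 family, had 2.86, 8.48 and 4.52 CPM in LL 2 h, against 7.002, 5.23 and 9.12 CPM in LL 0 h, with overlap in both. Of 13 antioxidant and detoxification genes, 0 were called higher and 2 were called lower, against 4.34% and 8.15% of all genes. The list median was -0.45, or -0.22 without LL 0 h replicate 1. CAT2, a catalase of peroxisomes, had 4.29, 2.31 and 5.65 CPM in LL 2 h, against 21.6, 42.4 and 10.8 CPM in LL 0 h (-2.58 ± 0.44). GSTU20, a glutathione transferase, had 25.7, 28.5 and 29.9 CPM in LL 2 h, against 113, 96.4 and 74.6 CPM in LL 0 h, and fell 3.37-fold.

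To place the 2 h sample in the LL course, LL 2 h was compared with LL 1 h in the same fit. Few genes differed: 18 were called higher (0.165% of 10930) and 68 lower (0.622%), and this comparison shares its LL 2 h libraries with the one above. The antenna and the cold regulon were still on their way down. Of 21 antenna genes, 7 were lower at 2 h than at 1 h, and the list's median against LL 0 h was -0.74 at 1 h, -1.31 at 2 h and -2.0 at 4 h, in comparisons that all use the same LL 0 h libraries. Of 17 cold genes, 8 were lower at 2 h than at 1 h, with medians of -2.09, -3.47 and -4.18 at 1, 2 and 4 h. LHCB1.1 had 121 to 220.5 CPM in LL 2 h, against 1369, 1210 and 1540 CPM in LL 1 h, with no overlap (log2 fold change of 2 h over 1 h -3.10 ± 0.20, edgeR adjusted p = 7.7e-08). COR15A had 10.7 to 19.2 CPM in LL 2 h, against 117, 72.2 and 114 CPM in LL 1 h (-2.79 ± 0.33, edgeR adjusted p = 7.76e-05). LHCB2.3, BAM5 and BGLU18, a beta-glucosidase that releases abscisic acid from its conjugate, also differed, at -2.61, -2.85 and -2.39, and the call of BAM5 ended without LL 1 h replicate 3 (edgeR adjusted p = 0.0509) and without LL 2 h replicate 1 (0.0521).

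Heat shock genes had their highest median at 1 h and lower ones at 2 and 4 h. Their median against LL 0 h was 1.6 at 1 h, 0.96 at 2 h and -0.28 at 4 h, 5 of 15 were lower at 2 h than at 1 h, and 4 of 15 were lower at 4 h than at 2 h. MBF1C had 503, 359.9 and 323 CPM in LL 1 h, 95.1, 59.4 and 75.7 CPM in LL 2 h and 39.0, 29.8 and 34.0 CPM in LL 4 h, with no overlap between the times. JMJD5 was still climbing, since it had 117, 145 and 146 CPM in LL 2 h, against 47.6, 55.5 and 55.2 CPM in LL 1 h (1.38 ± 0.15, edgeR adjusted p = 2.86e-05). The other largest increases from 1 h were MYB34, a regulator of indole glucosinolates, at 1.77, CSLB03 at 1.46, its relative CSLB04 at 1.18 and AT2G08650 at 1.15, and the calls of CSLB03, CSLB04 and AT2G08650 ended without 1 or another single library. MYB34 had 22.2, 23.9 and 16.9 CPM in LL 2 h, against 6.08, 4.63 and 7.31 CPM in LL 1 h, but 17.8, 23.2 and 15.8 CPM in LL 0 h, so that LL 2 h overlapped LL 0 h. These values of 2 h against 1 h depend on the library set more than the main counts do, with 6 to 48 genes higher and 45 to 79 lower when 1 library was left out. The count of 6 came without LL 2 h replicate 3, and that of 48 without LL 2 h replicate 2, while 45 lower came without LL 2 h replicate 1 and without LL 1 h replicate 1, and without each of the other libraries 8 to 11 were higher.

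**Figure D3:**
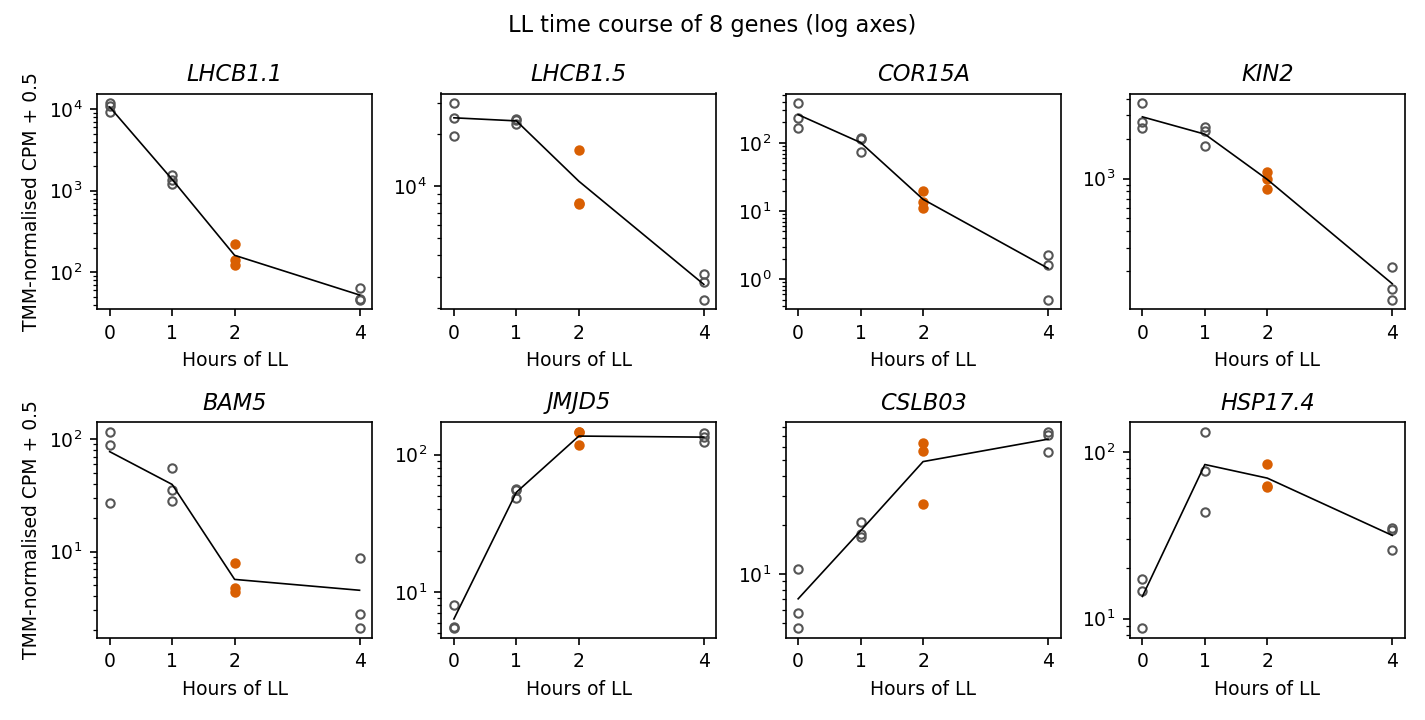
Level of 8 named genes in each LL library at 0, 1, 2 and 4 h, as CPM plus 0.5 on a log axis, with 3 points per time and a line through the group means. LHCB1.1 and COR15A drop at each step to 2 h, while JMJD5 climbs to 2 h and is level at 4 h (123 to 144 CPM).

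Between 2 and 4 h, 55 genes were called higher at 4 h (0.503%) and 74 lower (0.677%), with LL 2 h as the base. Without LL 2 h replicate 1, 36 were higher, and without LL 2 h replicate 2, 119 were lower. Of the antenna genes, 6 of 21 were lower at 4 h than at 2 h, and of the cold genes 5 of 17. LHCB1.2 had 309.9, 262 and 319 CPM in LL 4 h, against 1270, 1993 and 1272 CPM in LL 2 h (log2 fold change of 4 h over 2 h -2.35 ± 0.17, edgeR adjusted p = 6.93e-07). LHCB1.5, whose fall was small at 2 h, had 3132, 2801 and 2224 CPM in LL 4 h, against 7855, 16190 and 7973 CPM in LL 2 h (-1.97 ± 0.23). KIN2 had 146, 122 and 215 CPM in LL 4 h, against 828, 998 and 1123 CPM in LL 2 h (-2.61 ± 0.21), and in all 3 genes the times did not overlap. PIF4, a growth-promoting bHLH factor, and AT2G38240, a 2-oxoglutarate-dependent oxygenase, were also lower at 4 h, at -2.04 and -2.23. LHCB1.1 also fell further, with 63.7, 45.7 and 46.5 CPM in LL 4 h, against 140.2, 220.5 and 121 CPM in LL 2 h (-1.62 ± 0.21, edgeR adjusted p = 0.000231), and its groups did not overlap.

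The genes that were higher at 4 h than at 2 h were led by AT4G33720, of the CAP family that includes pathogenesis-related protein 1, with 221, 918 and 439 CPM in LL 4 h, against 67.2, 20.04 and 26.6 CPM in LL 2 h (3.80 ± 0.56, edgeR adjusted p = 0.000731). It was followed by AT3G03670, a peroxidase family gene, at 2.56, AT3G28270, a DUF677 protein, at 2.105, AT1G64500, a glutaredoxin family gene, at 2.098, and AT4G12520, of the lipid transfer protein family, at 2.03. LL 4 h replicate 2 was by far the highest library for the first of these genes and LL 2 h replicate 1 the highest of its group, and the times did not overlap.

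The change over 2 h was compared between light levels as the difference between the HL change (HL 2 h over HL 0 h) and the LL change, in a joint fit of the 24 libraries, for the 10349 genes that both tables hold. The difference was positive for 91 genes (0.879% of 10349) and negative for 12 (0.116%). Without HL 0 h replicate 3 the positive count was 57, and the negative count was 22 without LL 0 h replicate 1 and 5 without HL 2 h replicate 1. CPM in these comparisons come from that fit. List medians in HL also come from it, over members that both tables hold, while list medians in LL are those of the 12-library LL fit. Antenna genes had a list median of -1.69 in HL and -1.31 in LL, and the difference was called for 2 of 21, LHCB2.3 (1.102) and LHCA6 (1.45). Cold genes had medians of -2.81 in HL and -3.47 in LL, and the difference was called for 0 of 17 (3 at an unadjusted p under 0.05 with 2-fold, 0 in DESeq2). The HL and LL series each have their own 0 h libraries, so a gap between those 0 h levels enters the difference. A gene without a called difference is not thereby shown to change alike at both light levels.

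By the rule for named genes, the 5 largest positive differences belonged to genes with a negative LL change and a positive HL change. The LL falls of ELIP1, AT3G06145 and FADA were not called, however, and the HL change of CAT2 was 0.26 with overlapping groups. AT3G28270 had 50.3, 93.3 and 70.7 CPM in HL 2 h, against 18.7, 19.7 and 12.1 CPM in HL 0 h, and it had 9.52, 18.5 and 15.6 CPM in LL 2 h, against 33.1, 25.4 and 44.6 CPM in LL 0 h. The HL change exceeded the LL change by 3.303 ± 0.45 on the log2 scale (edgeR adjusted p = 0.000214). ELIP1, a thylakoid protein induced by bright light, had 19.6, 21.4 and 33.3 CPM in HL 2 h, against 7.92, 5.12 and 5.19 CPM in HL 0 h, and it had 3.40, 2.97 and 3.24 CPM in LL 2 h, against 9.82, 7.34 and 2.39 CPM in LL 0 h (difference 3.07 ± 0.56, edgeR adjusted p = 0.00391). Its LL groups overlapped and its HL groups did not. CAT2, AT3G06145, a RING zinc finger gene, and FADA, a fatty acid desaturase gene, had differences of 2.87, 2.76 and 2.74, and the call of AT3G06145 ended without LL 0 h replicate 3 (edgeR adjusted p = 0.0535). For AT3G28270 and FADA the 0 h levels of HL and LL were without overlap.

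**Figure D4:**
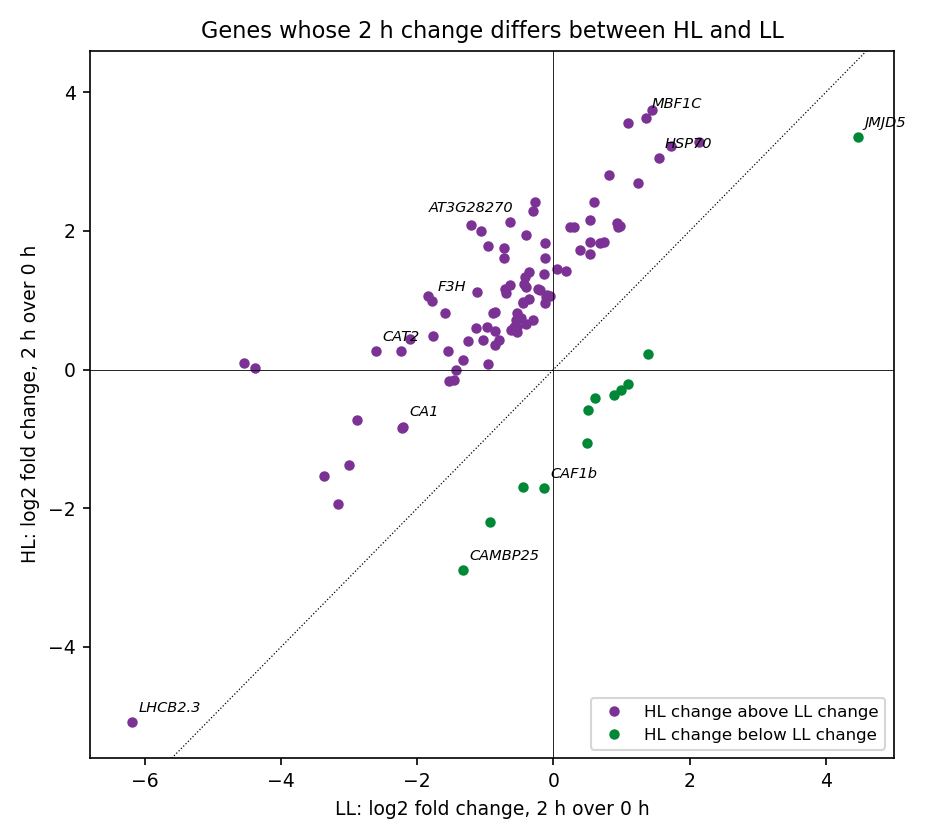
Change over 2 h in HL (vertical, log2 fold change) against change over 2 h in LL (horizontal, log2 fold change) for the genes whose difference was called, from the fit of 24 libraries. Each point is 1 gene, the line marks equal change, and the 91 genes above it and the 12 below it are there by the rule that chose them.

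Heat shock genes were among those that parted the light levels. Their median was 2.42 in HL and 0.96 in LL, and the difference was called for 3 of 15: MBF1C (2.27), HSP70 (1.51) and ROF1, a peptidyl-prolyl isomerase (1.24). In carbon fixation, the difference was called for RBCS1B (1.75), RBCS2B (1.15) and FBA1, a plastid aldolase (1.42), 3 of 31 genes. The flavonoid genes CHS and F3H had differences of 1.42 and 2.77. Negative differences, in which the HL change lay below the LL change, included JMJD5 at -1.13 and the stress-related genes ERF6 and CAF1b at -1.27 and -1.58. The largest by the rule for named genes were CAF1b, a deadenylase subunit, CAMBP25, a calmodulin-binding protein, at -1.56, AT1G11050, a protein kinase gene, at -1.54, UGT71C3, a glucosyltransferase, at -1.30, and AT5G60460, a subunit of the Sec61 translocon, at -1.29. CAMBP25 had 12.2, 16.1 and 14.4 CPM in HL 2 h, against 93.9, 133 and 90.5 CPM in HL 0 h, and it had 17.7, 12.6 and 18.9 CPM in LL 2 h, against 41.7, 44.0 and 39.1 CPM in LL 0 h. Its 2 h levels overlapped between HL and LL, and its 0 h levels did not. The same held for AT1G11050, with 14.8, 10.11 and 12.8 CPM in HL 2 h and 16.3, 17.8 and 10.8 CPM in LL 2 h, but 28.3, 27.0 and 23.6 CPM in HL 0 h and 12.9, 9.60 and 8.77 CPM in LL 0 h. CAF1b had 53.7, 73.1 and 52.5 CPM in HL 0 h and 36.8, 34.4 and 39.05 CPM in LL 0 h, also without overlap. UGT71C3 had 25.4, 16.8 and 28.8 CPM in HL 0 h and 13.5, 12.4 and 11.95 CPM in LL 0 h, again without overlap. Its call ended with the replicate number as a block (edgeR adjusted p = 0.0514) and in 10 of 12 fits with 1 library left out (0.0519 to 0.123), that of AT1G11050 in 5 of 12 (0.0513 to 0.0698) and that of CAMBP25 in 3 of 12 (0.056 to 0.0841).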

How the data were processed

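Bulk MARS-seq libraries of whole *Ch1* seedlings were grouped by their labels (3 libraries per time and light level). Per the labels and the study's methods, the authors made the deposited counts per gene: reads were demultiplexed with bcl2fastq, trimmed with cutadapt, aligned by STAR 2.4.2a to Araport 11 and counted with HTSeq-count. They kept genes above a low read minimum. Each gene of either table reaches 6 counts or more in some library. Use of molecular identifiers is not given in the sources used here. The deposited normalized signal values (counts divided by DESeq2 size factors) and the deposited log2 values (regularised transformation), both by the authors, were not used in tests. The deposited fold change and p-value columns hold the authors' own comparisons and were not used, and 0 deposited per-sample columns were left unlisted.

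The deposited counts were fitted with edgeR 4.0.16 in R 4.3.3 (quasi-likelihood, TMM scaling, 1 fit of the 12 LL libraries, no further filter). DESeq2 1.42.0, other scalings, a low-count filter, a fit of 6 libraries, a replicate block and leaving out each library were alternatives. All members, the 23 gene lists and the rules were chosen with earlier results of these data known. Of 465 listed genes, 377 are in the LL table. Named genes were the 12 largest called changes each way with no library overlap and 20 CPM or more on average in the higher group (5 each way in the other contrasts), and in each list the 2 called members with the smallest p each way. Oxygen markers and genes needed to name a small count were added, and further list members were named after their values were seen. Of the LL identifiers, 10848 matched a TAIR10.1 locus tag and 5306 of these have a symbol. Promoter windows were cut from TAIR10.1. Intervals and floors cover counting error only. Scripts were tested on simulated data.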

Additional observations from a re-analysis of the deposited data

Results flagged for a closer look

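For 26 named or listed genes the change over 2 h differed between HL and LL by the test of that difference (edgeR, 24 libraries, adjusted over 10349 genes, at least 2-fold). The HL change minus the LL change was positive for AT3G28270 (3.303 on the log2 scale), ELIP1 (3.07), CAT2 (2.87), F3H (2.77), AT3G06145 (2.76), FADA (2.74), MBF1C (2.27), RBCS1B (1.75), HSP70 (1.51), LHCA6 (1.45), FBA1 (1.42), CHS (1.42), CA1 (1.38), ROF1 (1.24), APX1 (1.21), GOX1 (1.19), RBCS2B (1.15), LHCB2.3 (1.102) and BAM3 (1.03). It was negative for CAF1b (-1.58), CAMBP25 (-1.56), AT1G11050 (-1.54), UGT71C3 (-1.30), AT5G60460 (-1.29), ERF6 (-1.27) and JMJD5 (-1.13). The sign gives the order of the 2 changes, not their size: CAT2 changed by 0.26 in HL and -2.60 in LL, and CAF1b by -1.71 in HL and -0.13 in LL. The call of UGT71C3 ended in 10 of 12 fits with 1 library left out, that of AT1G11050 in 5, that of CAMBP25 in 3 and that of AT3G06145 in 1. The 0 h libraries of HL and LL did not overlap for AT3G28270, FADA, AT1G11050, UGT71C3, CAMBP25 and CAF1b. This was examined only among the named genes with the largest differences. The shoot markers CA1 and GOX1 and the antenna genes LHCA6 and LHCB2.3 stand on the positive side. For CAT2 the LL 0 h libraries were spread, with 20.9, 41.2 and 10.4 CPM.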

How the results depend on the processing

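The 474 genes higher and 891 lower at LL 2 h were 356 and 736 in DESeq2, of which 355 and 709 were called by both tools (adjusted p NA for 1699 genes), 433 and 930 with RLE scaling, 468 and 899 with upper-quartile scaling, 409 and 766 with a low-count filter and 421 and 805 in a fit of 6 libraries. An unadjusted p gave 590 and 1178. Without 1 replicate in turn they ran from 426 to 483 and from 745 to 880. Left-out replicates moved the smaller comparisons more: 2 h against 1 h gave 6 to 48 higher and 45 to 79 lower, 4 h against 2 h gave 36 to 70 and 52 to 119, and the HL and LL difference gave 57 to 89 positive and 5 to 22 negative, and the cause was not tested. Without LL 2 h replicate 2 the list counts moved by at most 3 genes each way. With the replicate number as a block the counts were 459 and 860. Same-numbered libraries of LL 2 h and LL 0 h deviated with correlations of 0.14, -0.33 and -0.29 over 7288 genes, so the numbers were not taken to pair them. RLE shifted the median of all genes to -0.04. Of 1234 alternative values for 103 results on named genes, 1166 kept call and direction, 67 were no longer called, 1 was newly called (BAP1, -1.06 without LL 2 h replicate 3) and 0 reversed. List medians took the opposite sign in 13 of 276 values. Among them were low oxygen (0.07) and superoxide markers (0.13) with the filter, and nitrate, abscisic acid and glucosinolate medians, which lie near 0. Genes at a few counts are limited by depth, and their folds have wide intervals.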

Other observations

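Ethylene signalling was on no list, and 25 of its genes were looked up after the rise of ERF1 and ETR2 had been seen, so their counts are a description. Of 20 in the LL table, 13 were called higher, 0 lower and 7 were not called, beside 4.34% and 8.15% of all genes. The 13 include ERF1 and ETR2, whose rise prompted the search, so setting them beside all genes is not a test. ERF1A, ERF2, ERF4, ERF5 and ERF104, given above as not called, are not among the 20. The receptor ERS2 had 31.5, 44.7 and 41.2 CPM in LL 2 h, against 12.1, 10.4 and 7.46 CPM in LL 0 h, and the central membrane protein EIN2 had 119, 102 and 94.3 CPM in LL 2 h, against 39.5, 40.7 and 33.2 CPM in LL 0 h. EBP, an ethylene response factor, had 3697, 3699 and 2813 CPM in LL 2 h, against 1046, 819.5 and 622 CPM in LL 0 h. Both positive and negative components were among those called: CTR1, a kinase that holds the pathway back, rose with a log2 fold change of 1.38, EBF2, which removes the factor EIN3, with 1.05, and EIN2 with 1.47. The defence genes PR4 and HCHIB rose with 2.09 and 1.097, while PDF1.2, another defence gene, was not called at -1.42.

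The chloroplast gene ATCG01180 was called higher from a single library. It had 0, 61.7 and 0 CPM in LL 2 h, all 80 counts being in replicate 2, against 0 in all LL 0 h libraries. It was the only called gene with counts in 1 library alone of its higher group.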
